A study of Homo sapiens with 4 samples.

Results

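The 8 genes described here encode the prothymosins and the high mobility group (HMG) proteins, abundant non-histone proteins of chromatin. They are PTMA, PTMS, HMGB1, HMGB2, HMGB3, HMGN1, HMGN2 and HMGA1, and each matched exactly 1 of the 28412 gene rows of the table. The set was chosen because PTMA was lower after LDB1 knockdown in these same libraries, so its differences between the groups are given as a description: where a gene of the set is said to be past a threshold, this places it in the fit over all genes and is no test of the set.

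Expression was profiled by RNA-seq of 4 bulk libraries from human cells labelled NB4, a line from acute promyelocytic leukemia. Control cells were infected with the lentiviral vector sh-NC (2 libraries, also labelled as untreated NB4 of control genotype), and knockdown cells with a lentiviral shRNA directed at LDB1 (sh-LDB1, 2 libraries). Both groups were selected with puromycin, and of 3 designed LDB1 shRNAs the one used for sequencing is not named in the labels. Nothing says that the replicates came from separate cultures, so p-values measure only the spread between these libraries, which may be technical.

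LDB1 itself, the adaptor protein that joins LIM-domain and GATA factors into complexes on DNA, was 135 and 120.1 FPKM in sh-NC and 10.2 and 9.47 FPKM in sh-LDB1, so 7.73% of its mean level was left (log2 fold change -3.56 ± 0.0765 (SE), adjusted p = 6.93e-05, limma). FPKM counts the fragments for each kilobase of a gene and corrects for how deeply the library was sequenced. One FPKM stood for an estimated 14.6 to 16 fragments per kilobase, and 12910 to 13443 genes reached 1 FPKM in each library. Markers of the labelled cell type were low. ELANE, a granule protease of promyelocytes, was listed at 0 in 3 libraries and at 0.182 FPKM in the other, and the 6 measured promyelocyte and granulocyte markers summed to 11.7 and 10.8 FPKM in sh-NC and to 40.2 and 36.4 FPKM in sh-LDB1. Of the 5 that could be tested, LYZ, CSF3R and PRTN3 were higher past the threshold (an adjusted p below 0.05 and a fold above 2 or below 0.5) and none was lower (limma, also at an unadjusted p below 0.05). AZU1 was higher short of the fold threshold (log2 fold change 0.94, adjusted p = 0.00263, limma). CEBPE lay the other way, at 1.55 and 1.27 FPKM in sh-NC against 0.924 and 0.340 FPKM in sh-LDB1, and did not pass (adjusted p = 0.0810, limma). MPO and CTSG were not analysed here. The 9 erythroid markers summed to 3468 and 3441 FPKM in sh-NC and to 324 and 310 FPKM in sh-LDB1, and all 9 were past the threshold in the lower direction (8 under either other scaling of the libraries), the embryonic globin gene HBZ at 1543 and 1600 FPKM against 58.9 and 61.3 FPKM among them. Monocyte markers stayed at or under 0.881 FPKM in sum and were too low to test. The measured megakaryocyte markers summed to at most 2.64 FPKM, and the lymphoid markers to between 21.3 and 47.7 FPKM, most of it CD3D. The part of this shift in cell-type markers in the results below was not tested, and in bulk RNA fewer cells of a type and less RNA per cell cannot be told apart.

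Prothymosin alpha, encoded by PTMA, is a small and very acidic nuclear protein that binds linker histone H1 and favours loose chromatin, and in the cytoplasm it can hold back formation of the apoptosome. HMGB proteins bend DNA with their HMG boxes, HMGN proteins bind the nucleosome core and compete with H1, and HMGA proteins grip AT-rich DNA through AT hooks. Several of their genes are highly expressed in dividing and immature cells, including leukemic blasts.

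The promoters of 4 of these genes are shown because 3 of them (PTMA, HMGB1 and HMGB3) had the largest relative differences between the groups and the other, HMGN2, lay next to them and held the most kinds of motif. The sequences are the 250 bases before the first listed start in RefSeq (GRCh38.p14), on the gene's own strand, at chr2:231708275-231708524 (+) for PTMA, chr13:30465937-30466186 (-) for HMGB1, chrX:150983085-150983334 (+) for HMGB3 and chr1:26472190-26472439 (+) for HMGN2. For PTMA, HMGB1 and HMGB3 these windows lie inside the wider gene spans of GENCODE given below, which hold transcripts with other starts. Capitals mark every match, searched on both strands, to 5 short motifs. The first, CCAAT, is bound by the factor NF-Y. The E-box CACGTG is bound by MYC with MAX, and the E-box CAGCTG is of the kind bound by dimers with TAL1. The motif AGATAA is bound by factors such as GATA1, and the last motif, TATAAA, is the core promoter element that places the start in some genes.
PTMA: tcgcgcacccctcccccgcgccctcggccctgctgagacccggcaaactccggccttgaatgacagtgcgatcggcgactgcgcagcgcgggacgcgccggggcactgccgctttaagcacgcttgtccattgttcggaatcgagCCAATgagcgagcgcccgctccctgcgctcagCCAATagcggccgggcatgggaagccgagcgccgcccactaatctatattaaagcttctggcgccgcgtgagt
HMGB1: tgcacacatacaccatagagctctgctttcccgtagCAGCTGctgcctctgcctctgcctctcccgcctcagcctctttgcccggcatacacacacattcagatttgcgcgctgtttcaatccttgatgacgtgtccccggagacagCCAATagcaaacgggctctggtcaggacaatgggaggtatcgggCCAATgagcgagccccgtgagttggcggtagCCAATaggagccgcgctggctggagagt
HMGB3: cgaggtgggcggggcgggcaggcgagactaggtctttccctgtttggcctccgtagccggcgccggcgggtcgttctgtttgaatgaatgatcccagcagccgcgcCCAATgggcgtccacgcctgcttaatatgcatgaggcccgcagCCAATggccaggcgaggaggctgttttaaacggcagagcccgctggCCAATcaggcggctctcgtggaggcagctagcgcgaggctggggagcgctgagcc
HMGN2: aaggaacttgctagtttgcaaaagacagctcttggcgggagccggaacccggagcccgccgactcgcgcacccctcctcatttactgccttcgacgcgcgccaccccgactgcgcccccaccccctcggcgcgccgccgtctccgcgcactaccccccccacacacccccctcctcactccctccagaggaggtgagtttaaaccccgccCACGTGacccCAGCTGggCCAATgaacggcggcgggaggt

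A promoter entry was found for 6 of the 8 genes (PTMA, HMGB1, HMGB3, HMGN1, HMGN2 and HMGA1). CCAAT was present in 5 of these 6, all but HMGA1, against 33.0% of all 27305 promoters of the same length. In PTMA it began 105 and 73 bases before the start, in HMGB1 at 103, 59 and 28 bases, in HMGB3 at 3 places from 144 to 55 bases, in HMGN1 at 98 and 13 bases, and in HMGN2 at 22 bases. The CACGTG E-box was found only in HMGN2, 40 bases before the start, and in 6.49% of all promoters. CAGCTG was found in HMGB1 and HMGN2 and in 13.8% of all promoters, whereas AGATAA (9.37% of all promoters) and TATAAA (11.1%) were found in none of the 6. The 6 promoters were also richer in G and C, with a median of 67.4% against 58% and a median of 26.5 CpG sites against 11. A match describes these letters only, and no binding was measured in these files.

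All 8 genes were lower in both sh-LDB1 libraries than in both sh-NC libraries, without overlap between the groups. Over all 13300 genes tested, 46.3% were lower without overlap, and 54.3% had a log2 fold change below 0. PTMA, HMGB1 and HMGB3 were past the threshold in the lower direction, as were 10.3% of all genes tested (9.5% were past it in the higher direction). With no fold threshold all 8 were past it, against 37.4% of all genes lower and 29.9% higher. Since the set was chosen from this contrast, nothing is read from these counts. The median log2 fold change of the 8 genes was -0.95, and that of all genes tested was -0.08. Abundant genes lay lower as a group: among the 851 genes averaging 50 FPKM or more the median was -0.33, and 56.4% of them were lower at an adjusted p below 0.05.

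**Figure D1:**
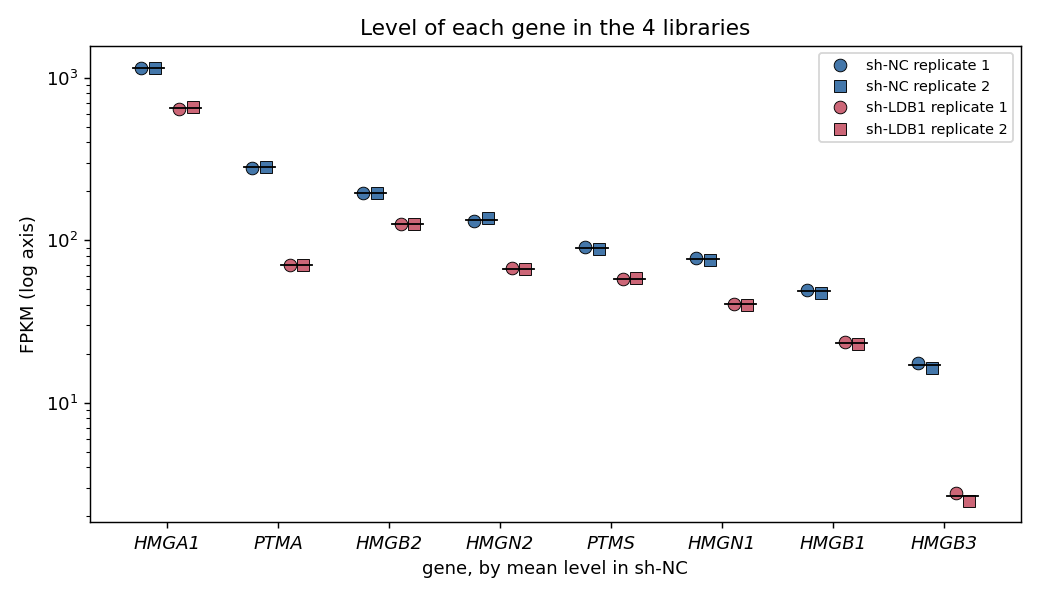
Level of each of the 8 genes in FPKM (log axis) in the 4 libraries, with genes ordered by their mean in sh-NC; circles and squares are the replicates 1 and 2, and short lines are the group means. PTMA stands above HMGB2 in sh-NC (281 against 196 FPKM) and below it in sh-LDB1 (70.8 against 126 FPKM).

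Of the prothymosins, PTMA (ENSG00000187514, chr2:231706895-231713551, plus strand, GRCh38) was 278 and 284 FPKM in sh-NC and 70.8 FPKM in both sh-LDB1 libraries. The replicates lay close together and the groups far apart. The mean went from 281 ± 3.91 to 70.8 ± 0.0177 FPKM (SD, n = 2 each), so 25.2% was left, a log2 fold change of -1.97 ± 0.0381 (SE). Among all genes of a library PTMA ranked 122 and 116 by FPKM in sh-NC against 525 and 527 in sh-LDB1, and 1.35% of the genes tested had a lower log2 fold change. PTMA was also on the study's own list of candidate targets and HMGB1 on its list of bound and changed genes. Both lists were made in part with these libraries. The bound list also drew on LDB1 ChIP-seq in NB4 cells. The candidate list also required binding of transcription factors by ChIP-seq and super-enhancers in AML samples.

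Parathymosin, the product of PTMS (ENSG00000159335, chr12:6765516-6770952, plus strand), is the relative of prothymosin alpha with a similar acidic stretch. PTMS was 91.1 and 87.9 FPKM in sh-NC and 57.5 and 58.4 FPKM in sh-LDB1. Its level was therefore lower by a smaller factor than that of PTMA, with 64.8% left (log2 fold change -0.62 ± 0.0414 (SE)). The ratio of PTMA to PTMS was 3.05 and 3.23 in sh-NC against 1.23 and 1.21 in sh-LDB1. This ratio is taken within a library and does not depend on how the libraries were scaled.

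The HMGB genes encode DNA-bending proteins with paired HMG boxes and an acidic tail, and HMGB1 also acts outside cells as an alarm signal. HMGB2 (ENSG00000164104, chr4:173331376-173334432, minus strand), the form typical of dividing cells, was 196 and 195 FPKM in sh-NC and 126 FPKM in both sh-LDB1 libraries, with 64.3% left (log2 fold change -0.63 ± 0.0371 (SE)). HMGB1 (ENSG00000189403, chr13:30456704-30617597, minus strand) was 49.3 and 47.5 FPKM in sh-NC and 23.7 and 22.9 FPKM in sh-LDB1, with 48.1% left (log2 fold change -1.02 ± 0.0458 (SE)). The relative difference was thus larger for HMGB1 than for the more abundant HMGB2, and larger still for HMGB3. HMGB3 (ENSG00000029993, chrX:150980509-150990771, plus strand), the form known for its role in immature blood cells, was 17.6 and 16.4 FPKM in sh-NC and 2.80 and 2.50 FPKM in sh-LDB1. Its mean went from 17 ± 0.810 to 2.65 ± 0.213 FPKM (SD, n = 2 each), 15.6% of the control level and a log2 fold change of -2.30 ± 0.0725 (SE). Only 0.632% of the genes tested had a lower log2 fold change, and HMGB3 ranked 2935 and 3155 in sh-NC against 9481 and 9888 in sh-LDB1.

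Within the summed FPKM of the 3 HMGB genes (263 and 259 in sh-NC, 153 and 151 in sh-LDB1), the makeup differed between the groups. HMGB3 took 6.67% and 6.33% of the sum in sh-NC against 1.83% and 1.65% in sh-LDB1. HMGB2 took 74.6% and 75.3% in sh-NC against 82.6% and 83.2% in sh-LDB1, and HMGB1 18.7% and 18.3% against 15.5% and 15.1%. No share overlapped between the groups. With the FPKM of the pseudogene rows described below added, HMGB2 took 51.0% and 52.2% in sh-NC against 59.1% and 59.97% in sh-LDB1. HMGB1 then took 44.2% and 43.2% against 38.7% and 38.3%. These sums mix rows of unlike length, as the highest HMGB1 pseudogene has 646 bases and HMGB1 has 7696 exon bases. They therefore do not give the shares that would follow if reads from the copies were moved to the genes.

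**Figure D2:**
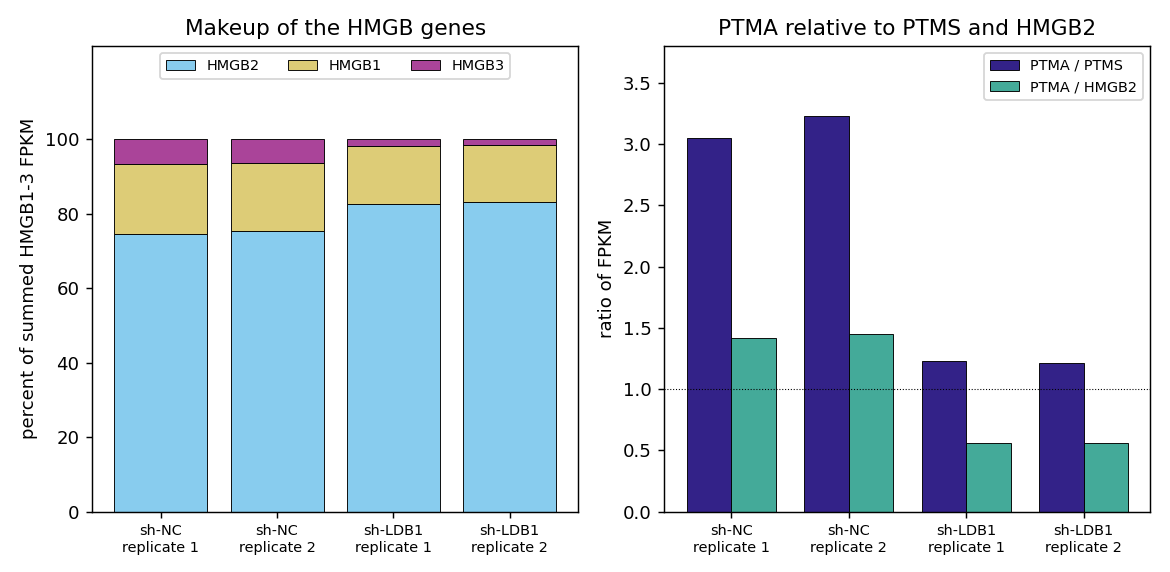
Left, share of HMGB1, HMGB2 and HMGB3 in their summed FPKM in each library (percent); right, ratio of PTMA to PTMS and of PTMA to HMGB2 in each library, with a dotted line at 1. The ratio of PTMA to HMGB2 is 1.42 and 1.45 in sh-NC against 0.561 and 0.563 in sh-LDB1.

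HMGN1 and HMGN2 encode the nucleosome-binding proteins that loosen chromatin compaction by linker histones. HMGN1 (ENSG00000205581, chr21:39342315-39349647, minus strand) was 78.2 and 75.5 FPKM in sh-NC and 40.3 and 40.1 FPKM in sh-LDB1, with 52.4% left (log2 fold change -0.92 ± 0.0411 (SE)). HMGN2 (ENSG00000198830, chr1:26472440-26476642, plus strand) was 131 and 136 FPKM in sh-NC and 67.0 and 66.7 FPKM in sh-LDB1, with 49.97% left. At a log2 fold change of -0.99 ± 0.0409 (SE), HMGN2 lay just short of the fold threshold and HMGB1 just past it. The threshold was applied on log2(FPKM + 1), where the fold of HMGN2 was 0.503, although 49.97% of its mean FPKM was left. The HMGN genes kept nearly the same proportion to each other, since the ratio of HMGN2 to HMGN1 was 1.68 and 1.81 in sh-NC against 1.66 in both sh-LDB1 libraries.

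HMGA1 (ENSG00000137309, chr6:34236873-34246231, plus strand), the architectural protein that shapes enhancer complexes on AT-rich DNA, had the highest level of the 8 genes in every library. It was 1148 and 1154 FPKM in sh-NC and 645 and 660.0 FPKM in sh-LDB1, and its rank among all genes was 30 and 31 against 42 and 39. The mean went from 1151 ± 4.17 to 652 ± 10.9 FPKM (SD, n = 2 each), with 56.7% left (log2 fold change -0.82 ± 0.0451 (SE)). HMGA1 alone gave most of the FPKM of the set. Together the 8 genes summed to 1990 and 1997 FPKM in sh-NC and to 1033 and 1047 FPKM in sh-LDB1, or 0.624% and 0.625% of all FPKM against 0.362% and 0.372%.

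**Figure D3:**
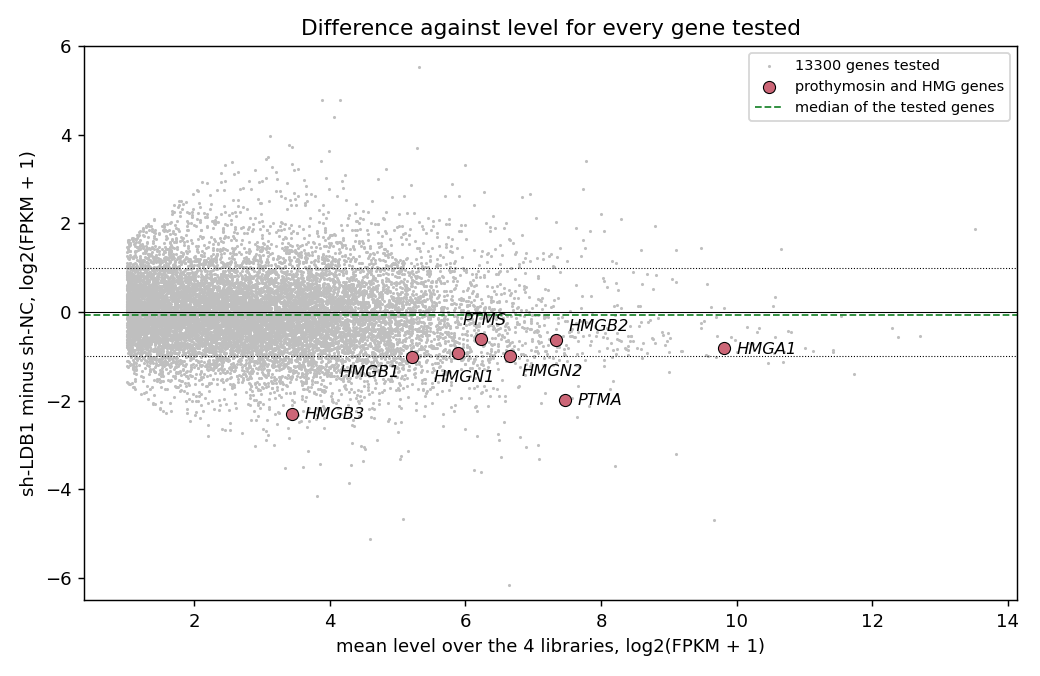
Difference between the group means, sh-LDB1 minus sh-NC in log2(FPKM + 1), against the mean level over the 4 libraries for the 13300 genes tested (grey); red points are the 8 genes, dotted lines mark a fold of 2 and the dashed line the median of all genes tested (-0.08). All 8 points lie below that median, from -0.62 (PTMS) to -2.30 (HMGB3).

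The scaling of the libraries moved these values without turning any of them. The summed FPKM was 319063 and 319687 in sh-NC against 285208 and 281397 in sh-LDB1. When it was made equal, the median of all genes shifted by 0.139 to 0.06, and the threshold was passed by 1602 genes higher and 1001 lower, in place of 1264 and 1371, so lower genes were 38.5% of the calls in place of 52.0%. All 8 genes stayed below 0, the highest at a log2 fold change of -0.45, or -0.51 relative to the shifted median, and HMGB1 was no longer past the threshold (log2 fold change -0.86). Without sh-NC replicate 1 or without sh-LDB1 replicate 2, HMGB1 was likewise not past it, and HMGN2 was past it without sh-NC replicate 1.

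These genes have many processed copies in the genome, and the table held 52 pseudogene rows named for them: 15 for HMGB1, 13 for HMGN2, 10 for HMGN1, 6 for HMGB3, 4 for PTMA, 3 for HMGA1 and 1 for HMGB2. The highest, HMGB1P6, a processed pseudogene of 646 bases at chr15:71164770-71165415, was 75.9 and 72.1 FPKM in sh-NC and 33.1 and 36.3 FPKM in sh-LDB1, above HMGB1 itself in every library. It was lower after knockdown (log2 fold change -1.07 ± 0.0621 (SE), adjusted p = 0.000273, limma). Summed over its pseudogenes, HMGB1 copies came to 121 and 114 FPKM in sh-NC and to 58.9 and 57.5 FPKM in sh-LDB1, so gene and copies differed in the same direction and by a similar factor. How reads that fit several copies were counted is not given in the sources used here, so the level of HMGB1 is uncertain. With the copies added, HMGB3 took 4.81% and 4.56% of the HMGB sum in sh-NC against 2.22% and 1.72% in sh-LDB1. For PTMA the copies were small, 9.52 and 13.5 FPKM against 3.53 and 2.95 FPKM in sum. For HMGN2 and HMGB3 the summed FPKM of the copies was higher after knockdown while the gene was lower. The HMGN2 copies summed to 15.4 and 15.6 FPKM in sh-NC and to 18.8 and 16.9 FPKM in sh-LDB1. None of the 4 HMGN2 copies that could be tested passed by itself. Their log2 fold changes ran from -0.08 to 0.37 (adjusted p from 0.431 to 0.939, limma). The HMGB3 copies summed to 0.965 and 0.669 FPKM in sh-NC and to 1.94 and 1.10 FPKM in sh-LDB1. In sh-LDB1 they came to 69.3% and 44.03% of the FPKM of HMGB3 itself, and with them added its log2 fold change was -1.87 in place of -2.30. Of these 6 rows 0 averaged 1 FPKM or more, and FPKM were added without regard to length, so the value with copies is imprecise. Of the 15 pseudogene rows that could be tested, 6 were lower past the threshold and none was higher. With no fold threshold, or at an unadjusted p below 0.05, 8 were lower and 0 higher (limma). Over all genes tested, 10.3% were lower past the threshold and 37.4% with no fold threshold. Reads may be shared between copies and genes, so these counts are a description.

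The 29 other genes with an HMG box or of the HMGN family did not share one direction. Of the 20 tested, 3 were lower past the threshold and 0 higher, and with no fold threshold 9 were lower and 9 higher, with a median log2 fold change of -0.07. The count of 0 higher depended on the scaling: with equal summed FPKM 2 genes were higher past the threshold, TOX4 (log2 fold change 1.07) and HBP1 (1.00, named after its values were seen), and with median-of-ratios scaling TOX4 alone (1.009). HMGN5, the nucleosome-binding family member on the X chromosome, fell from 21.1 ± 0.631 to 5.69 ± 0.277 FPKM (log2 fold change -1.73 ± 0.0578 (SE), adjusted p = 0.000107, limma). WDHD1, a replication protein with an HMG box, fell from 15.7 ± 0.175 to 5.38 ± 0.0609 FPKM (log2 fold change -1.38, adjusted p = 0.000115, limma). The third gene past the threshold, LEF1, the WNT-responsive HMG-box factor, was named after its values were seen and fell from 5.10 ± 0.779 to 0.983 ± 0.0397 FPKM (log2 fold change -1.62, adjusted p = 0.000522, limma).
SSRP1, the HMG-box subunit of the histone chaperone FACT, fell from 61.1 ± 1.06 to 35.8 ± 0.328 FPKM (log2 fold change -0.75, adjusted p = 0.000222, limma), short of the fold threshold. HMGN4 fell by a smaller amount, from 53.8 ± 0.769 to 41.3 ± 0.398 FPKM (log2 fold change -0.37, adjusted p = 0.00143, limma). Other family members were higher. TOX4, an HMG-box protein of a phosphatase complex, rose from 7.87 ± 0.128 to 15.8 ± 0.446 FPKM (log2 fold change 0.92, adjusted p = 0.000245, limma), and HMGN3, named after its values were seen, rose from 31.4 ± 2.11 to 49.3 ± 2.93 FPKM (log2 fold change 0.63, adjusted p = 0.00172, limma). The HMGN family therefore held genes in both directions.

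Linker histones, which PTMA binds and with which HMGN and HMGB proteins compete on the nucleosome, had a median log2 fold change of -0.19. None of the 5 tested passed the threshold, and with no fold threshold 1 was lower and 2 higher. H1-2 (listed under its older name HIST1H1C), by far the most abundant, was 2079 and 2051 FPKM in sh-NC and 1521 and 1504 FPKM in sh-LDB1 (log2 fold change -0.45 ± 0.0496 (SE), adjusted p = 0.00164, limma). H1-10 was 99 ± 7.36 against 86.7 ± 0.715 FPKM and did not pass (adjusted p = 0.0525, limma). H1-3 rose from 4.82 ± 0.385 to 6.41 ± 0.0820 FPKM (adjusted p = 0.0122, limma), and H1-4 from 3.64 ± 0.0640 to 5.11 ± 0.155 FPKM (adjusted p = 0.00572, limma), each by a fold under the threshold. H1-5 was 2.18 and 1.89 FPKM in sh-NC and 0.458 and 1.65 FPKM in sh-LDB1 and did not pass (adjusted p = 0.143, limma). Transcripts of the replication-dependent histones mostly lack a poly(A) tail, and how RNA was selected is not given in the sources used here.

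Histone chaperones, acidic proteins that carry histones and so work beside the prothymosins, were mostly lower, with a median log2 fold change of -0.74. Of 23 tested, 8 were lower past the threshold and 0 higher, and 19 lower and 1 higher with no fold threshold. Of all genes tested, 10.3% and 37.4% were lower by these 2 measures, and 15.6% and 56.4% of genes averaging 50 FPKM or more. The list was chosen with earlier results of these data known, so its counts are a description. ANP32B, an acidic histone-binding protein, fell from 433 ± 7.65 to 146 ± 4.12 FPKM (log2 fold change -1.56 ± 0.0442 (SE), adjusted p = 8.31e-05, limma). CHAF1A, the large subunit of the replication-coupled assembly factor CAF-1, fell from 38.9 ± 1.29 to 8.70 ± 0.440 FPKM (log2 fold change -2.04, adjusted p = 8.31e-05, limma). NASP, a linker-histone and H3 chaperone, fell from 41.1 ± 1.81 to 12.8 ± 0.0522 FPKM (log2 fold change -1.61, adjusted p = 9.69e-05, limma). SUPT16H, the partner of SSRP1 in FACT, fell from 32.2 ± 0.768 to 11.5 ± 0.0896 FPKM (log2 fold change -1.42, adjusted p = 9.77e-05, limma). Both FACT subunits were thus lower, SUPT16H by the larger factor. Nucleophosmin, NPM1, had the highest level on the list and fell from 484 ± 21.0 to 299 ± 2.57 FPKM (log2 fold change -0.69, adjusted p = 0.000474, limma), short of the fold threshold.

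**Figure D4:**
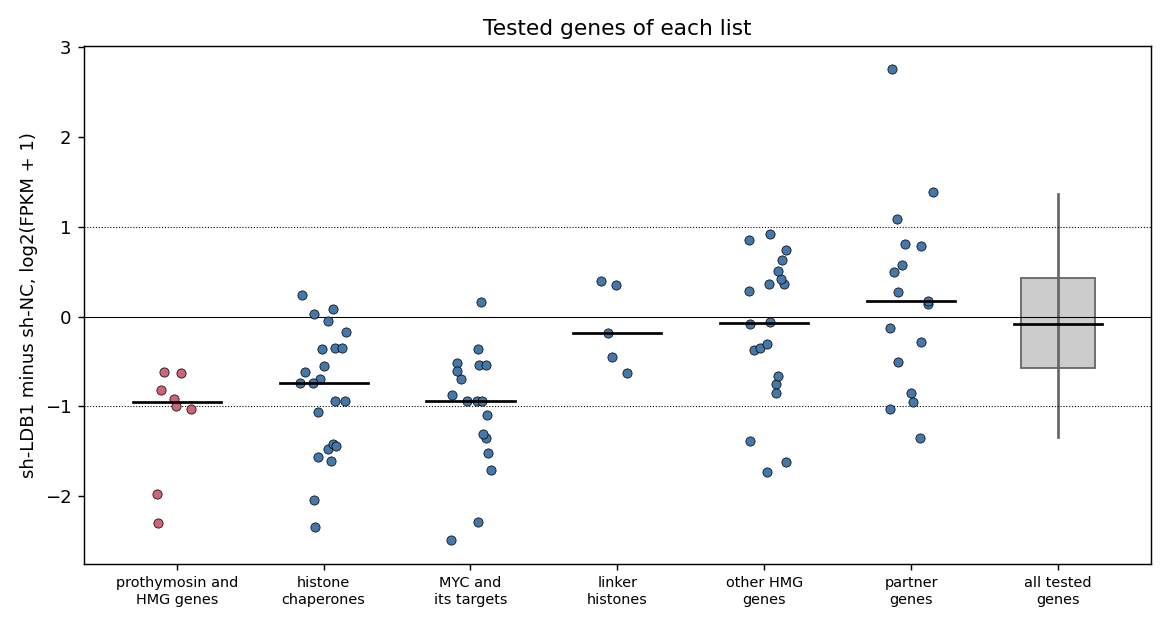
Log2 difference in log2(FPKM + 1), sh-LDB1 minus sh-NC, of each tested gene of the 8-gene set (red) and of the related lists (blue), with the list median as a black line; for all genes tested the box spans the quartiles, the whiskers the 5th to 95th percentile, and dotted lines mark a fold of 2. Medians are -0.95 for the 8 genes, -0.74 for histone chaperones, -0.94 for MYC and its targets, -0.19 for linker histones, -0.07 for other HMG genes and 0.18 for partner genes.

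At an unadjusted p below 0.05 in limma, 9 other HMG genes were lower and 9 higher, and 2 linker histones were lower and 2 higher. By the same measure 19 histone chaperones were lower and 1 higher, and 7 partner genes were lower and 9 higher.

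The partners of prothymosin alpha and HMGB proteins, which are their binding proteins, proteases, receptors and downstream enzymes, moved both ways: of 17 tested, 2 were lower and 3 higher past the threshold, and 6 lower and 8 higher with no fold threshold. LGMN, the protease legumain that cleaves prothymosin alpha to thymosin alpha, was 0.428 and 0.365 FPKM in sh-NC and 8.02 and 8.78 FPKM in sh-LDB1 (log2 fold change 2.75 ± 0.0905 (SE), adjusted p = 0.000105, limma). The level of the protease transcript was higher where that of PTMA was lower, and a link between these transcript levels was not tested. PARP1, the DNA-damage sensor that modifies HMGB1, fell from 107 ± 3.36 to 54.9 ± 2.13 FPKM (log2 fold change -0.95, adjusted p = 0.000217, limma). APEX1, a DNA repair nuclease of the SET complex that also holds HMGB2, fell from 63.0 ± 2.58 to 30.4 ± 1.44 FPKM (log2 fold change -1.03, adjusted p = 0.000242, limma). STAT3, a transcription factor that binds prothymosin alpha, fell from 34.0 ± 0.557 to 18.4 ± 0.486 FPKM (log2 fold change -0.85, adjusted p = 0.000222, limma). Of the apoptosome, cytochrome c (CYCS) rose from 69.9 ± 1.91 to 76.9 ± 0.0925 FPKM (log2 fold change 0.14, adjusted p = 0.0396, limma). The other 3 genes past the threshold were named after their values were seen. APAF1, the scaffold of the apoptosome, rose from 3.92 ± 0.223 to 9.45 ± 0.0892 FPKM (log2 fold change 1.09, adjusted p = 0.000270, limma). CD24, a surface receptor for HMGB1, rose from 0.146 ± 0.00962 to 2.00 ± 0.256 FPKM (log2 fold change 1.38, adjusted p = 0.00175, limma), and NME1, also of the SET complex, fell from 24.5 ± 2.29 to 9.0 ± 0.324 FPKM (log2 fold change -1.35, adjusted p = 0.000280, limma).

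PTMA and HMGA1 are textbook targets of the transcription factor MYC. MYC was 159 and 161 FPKM in sh-NC and 27.3 and 28.1 FPKM in sh-LDB1 (log2 fold change -2.49 ± 0.0398 (SE), adjusted p = 6.77e-05, limma). Of the 18 genes on the list of MYC, its partner MAX and other known targets, 7 were lower past the threshold and 0 higher. With no fold threshold 17 were lower and 1 higher, with a median log2 fold change of -0.94 (1 was also higher at an unadjusted p below 0.05 in limma). Of all genes tested, 10.3% were lower past the threshold and 37.4% with no fold threshold. Among genes averaging 50 FPKM or more, 15.6% and 56.4% were lower by these measures. This list too was chosen with earlier results of these data known. A link between the level of MYC and the levels of PTMA, HMGA1 or the listed genes was not tested. ODC1, which starts polyamine synthesis, fell from 166 ± 1.64 to 50.3 ± 2.20 FPKM (log2 fold change -1.70, adjusted p = 8.31e-05, limma). NOP56, of the nucleolar box C/D particles, fell from 75.4 ± 0.524 to 25.8 ± 0.116 FPKM (log2 fold change -1.51, adjusted p = 8.04e-05, limma), and DKC1, the pseudouridine synthase, from 71.4 ± 1.81 to 28.3 ± 1.11 FPKM (log2 fold change -1.31, adjusted p = 0.000120, limma). The exception in direction was LDHA, lactate dehydrogenase A, which rose from 283 ± 3.84 to 316 ± 2.50 FPKM (log2 fold change 0.16, adjusted p = 0.0228, limma). NPM1 and NCL stand on both this list and that of the histone chaperones, and NME1 on both this list and that of the partners.

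Around PTMA, 3 other protein-coding genes that start within 300 kb were tested. NCL, which encodes nucleolin and starts at -223 kb relative to PTMA, was 123 and 122 FPKM in sh-NC and 63.4 and 63.8 FPKM in sh-LDB1 (log2 fold change -0.94 ± 0.0375 (SE), adjusted p = 0.000134, limma). COPS7B, a signalosome subunit starting 74.8 kb beyond the start of PTMA, was 7.28 and 7.56 FPKM against 5.46 and 5.83 FPKM (log2 fold change -0.34, adjusted p = 0.00780, limma). DIS3L2, an RNA exonuclease gene starting at 254 kb, was 2.03 and 2.00 FPKM against 1.86 and 2.03 FPKM and did not pass (log2 fold change -0.04, adjusted p = 0.760, limma). None of these 3 reached a fold of 2.

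The 5 tested genes whose levels over the 4 libraries were most like those of PTMA, by Euclidean distance in log2(FPKM + 1), were MT-TG (distance 0.458), GATA1 (0.528), MT-TH (0.542), BLVRB (0.653) and MT-TR (0.667). GATA1, the erythroid transcription factor, was 227 and 222 FPKM in sh-NC and 63.3 and 61.1 FPKM in sh-LDB1. BLVRB, a biliverdin reductase abundant in red cells, was 325 and 289 FPKM in sh-NC and 95.7 and 96.1 FPKM in sh-LDB1. The other 3 are mitochondrial tRNA genes of 65 to 69 bases, short enough for FPKM to be imprecise, and their replicates spread more: MT-TH was 331 and 270.3 FPKM in sh-NC and 61.5 and 95.8 FPKM in sh-LDB1. With 4 libraries in 2 groups, this likeness rests mostly on the level and on the size of the difference between the groups.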

How the data were processed

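RNA-seq analysis and data processing. Total RNA from 2 sh-NC and 2 sh-LDB1 libraries was sequenced after Illumina TruSeq preparation. The authors filtered the raw reads, aligned the clean ones with HISAT (HISAT2 2.0.5 on hg38 in the submitters' processing notes) and deposited FPKM per gene and library; the annotation, counting tool and use of strand are not given in the sources used here. The authors called changed genes with DESeq2. As FPKM are not counts, limma 3.58.1 (R 4.3.3) was run on log2(FPKM + 1) for the 13300 genes averaging 1 FPKM or more (eBayes with a trend, two-sided, Benjamini-Hochberg adjustment over all of them), and fold changes are on this scale, which understates those of low genes. The fold threshold follows the study's methods, and its p threshold was applied here to the adjusted p. Groups and replicate numbers came from the labels. Depth was estimated from genes with a single transcript, where 89.9% to 91.8% of the values in a library came within 0.1 of a whole fragment. Positions came from GENCODE 44 on GRCh38, where 28193 of 28412 rows were found, and promoters from RefSeq. The script was tested on simulated data. Gene lists and members were chosen with earlier results of these data known. Named genes were the 8 members, LDB1, every tested gene of lists with up to 6, otherwise up to 4 with the smallest adjusted p and up to 2 with the highest mean, the highest pseudogene, the 5 genes nearest to PTMA and the tested protein-coding genes within 300 kb of it; others are said to be named after their values were seen. Marker lists are given by sums and counts with few genes named, which departs from that rule. Listed genes with no row were not analysed here. Alternatives were other pseudocounts, filters, scalings, fold tests, a replicate block and leaving out each library.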

Additional observations from a re-analysis of the deposited data

How the results depend on the processing

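The direction of all 8 genes was the same under every alternative run. The log2 fold change ranged from -1.99 to -1.80 for PTMA, from -0.64 to -0.45 for PTMS, from -1.05 to -0.86 for HMGB1, from -0.64 to -0.46 for HMGB2, from -2.68 to -1.87 for HMGB3, from -0.94 to -0.75 for HMGN1, from -1.02 to -0.81 for HMGN2 and from -0.84 to -0.65 for HMGA1. PTMA was past the threshold under every alternative, and HMGB3 wherever it was tested, since its mean kept it out of the fit at 10 FPKM. HMGB1 was lost when the summed FPKM was made equal, under median-of-ratios scaling, with limma treat, without sh-NC replicate 1 and without sh-LDB1 replicate 2, and HMGN2 was gained at a pseudocount of 0.01, where 4 of the 8 were past the threshold, and without sh-NC replicate 1. In the main fit HMGB1 and HMGN2 lay on either side of the fold threshold, at log2 fold changes of -1.02 and -0.99. HMGB1 lay at -0.86 with equal summed FPKM and at -0.93 under median-of-ratios scaling. It lay at -0.998 with either of the named libraries left out. HMGN2 lay at -1.001 at a pseudocount of 0.01 and at -1.02 without sh-NC replicate 1. A minimum mean of 10 FPKM, which leaves fewer genes, gave 474 genes higher, 701 lower and 2 partner genes. Equal summed FPKM gave 5 other HMG genes, 3 lower and 2 higher. Median-of-ratios scaling, which shifted the median of all genes by 0.082, gave 1465 genes higher and 1145 lower, or 43.9% lower among the calls. Treat, which tests against the fold itself, gave 568 genes higher, 581 lower and 1 partner gene. With no fold threshold there were 3983 genes higher, 4978 lower, 8 of the 8 genes, 18 other HMG genes, 3 linker histones, 20 histone chaperones, 14 partner genes and 18 genes of MYC and its targets. Leaving out each library in turn gave 1251 to 1289 genes higher, 1352 to 1430 lower, 2 to 3 of the 8 genes lower and 0 higher, 0 to 1 linker histones (1 without sh-LDB1 replicate 2), 4 to 5 partner genes, 3 other HMG genes, 8 histone chaperones and 7 genes of MYC and its targets; the lone library of an arm is then assumed to vary like the other group. Whether libraries with the same replicate number were prepared together is not given in the sources used here. Deviations with the same number correlated at 0.0196 over the genes tested, which cannot settle it. With a replicate block 3 of the 8 genes were past the threshold, with 1274 genes higher and 1386 lower.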
